A study of Homo sapiens with 6 samples.

Results

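Glypicans and syndecans are the families of heparan sulfate proteoglycans that sit on the surface of most animal cells. They are described here by RNA sequencing of H1 cells, a human embryonic stem cell line derived from a blastocyst, in a series set up to compare wild-type cells with knockouts of BRPF1, which encodes a scaffold of histone acetyltransferase complexes. The members were the rows of the deposited count table named GPC1 to GPC6 and SDC1 to SDC4. These were 10 of 58395 gene identifiers. The rule that picks the rows uses gene names alone, but the names were chosen with earlier results of these data known. The series set 2 wild-type (WT) libraries against 2 BRPF1 knockout libraries named KO 1# and 2 named KO 2#. All 6 libraries are labelled as H1, and no further allele, agent or time point is given. What separates 1# from 2# (a clone, a guide or something else) and which exon was edited are not stated in the sources used here. Nor is it stated that replicates came from separate cultures, so the p-values cover no more than the spread among these 6 libraries, which may be technical.

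Glypicans are held in the outer leaflet of the membrane by a lipid (GPI) anchor and carry their heparan sulfate chains close to the membrane. Syndecans span the membrane once, carry their chains far from it, and end in a short cytoplasmic tail that binds adaptor proteins. The chains of both families bind growth factors and morphogens such as FGFs, Wnts and hedgehog proteins and change how these reach their receptors, and pluripotent cells need heparan sulfate to respond to several of them.

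The libraries held 33421785 to 38098779 counts. BRPF1 itself stood at 25.7 ± 3.68 (SD, n = 2) CPM (reads of a gene per library, put on 1 common scale) in WT and 27.3 ± 3.73 (SD, n = 4) over both knockout sets, a log2 difference of 0.08 (adjusted p = 0.508), so its transcript level did not separate the groups and does not check the knockout label. The count of a whole gene does not read a small edit. Knockout library therefore means here a library labelled as one. The cell type label was checked on 10 embryonic stem cell markers. Their summed level was 6490 to 6656 CPM in WT, 38.8 to 40.6 in KO 1# and 21.2 to 26.9 in KO 2#, all 10 were lower by the test, and UTF1 was at 0 in all 4 knockout libraries. The markers were thus far lower in the libraries labelled as knockouts, though not all absent: DPPA4 stood at 14.9 to 27.0 CPM there. These values go against the labelled cell type of those libraries, and whether the labels are right was not tested, which bears on every comparison with WT. Of 10 fibroblast markers 9 were higher and 1 lower: their summed level was 568 to 595 CPM in WT, 121619 to 130610 in KO 1# and 131216 to 133821 in KO 2#, with TWIST2 at 0 in every knockout library and LUM and FAP at 0 in WT. THY1, counted as higher, changed little, from 368 CPM in WT to 411 in the knockouts (log2 fold change 0.16). It made up most of the WT sum. All 8 epithelial markers were lower (summed 1257 to 1268 CPM in WT, 296 to 309 in KO 1#, 320 to 338 in KO 2#). Of 8 endothelial markers 2 were higher and 5 lower, of 5 tested neural markers 4 were higher and 1 lower, and of 3 tested blood markers 1 was higher and 1 lower. These calls are for both knockout sets together. MAP2, counted as higher, rose in KO 1# (log2 fold change 1.15) but was not called in KO 2# (-0.08, edgeR adjusted p = 0.766). NES, also counted as higher, was not called in KO 1# alone (edgeR adjusted p = 0.0517). Endothelial markers summed to 142 to 146 CPM in WT, 33.7 to 37.9 in KO 1# and 19.4 to 20.5 in KO 2#, neural markers to 188 to 215, 260 to 282 and 262 to 277, and blood markers to at most 1.45 in any library. Apart from the blood markers, these sums moved between WT and the knockout libraries. The neural sum was mostly NES, at 186 CPM in WT and 214 in the knockouts (log2 fold change 0.20). That change is smaller than the shift of -0.73 that scaling by library totals brings to the median of all tested genes. The direction of the neural sum is therefore not settled. The part of the markers in the results below was not tested. In bulk RNA, fewer cells of a type and less RNA per cell cannot be told apart.

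Against WT, GPC1, SDC1, SDC2 and SDC3 rose in the knockout libraries, and GPC2, GPC3, GPC4, GPC6 and SDC4 fell. GPC5 was near the detection limit. The sizes ran from an 8.89-fold higher level of SDC1 to a 20.7-fold lower level of GPC3. Levels are CPM after TMM scaling, a factor that evens out library composition, and calls are an adjusted p below 0.05 in edgeR's quasi-likelihood test with Benjamini-Hochberg adjustment over 19660 tested genes. All 10 members passed the filter on low counts. With both knockout sets pooled as a mean, 4 members were called higher and 5 lower, against 35.8% of all tested genes called higher, 41.4% called lower and 77.3% called at all. In KO 1# alone 4 were higher (35.0% of all genes) and 6 lower (38.7%), and in KO 2# alone 4 were higher (34.6%) and 5 lower (39.1%). For 9 of the 10 the WT and knockout libraries did not overlap, which held for 80.4% of all tested genes. Being called was therefore common in these libraries, and the counts alone do not set the families apart. The median log2 fold change of the 10 members was -0.79, and that of all tested genes was -0.13.

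**Figure D1:**
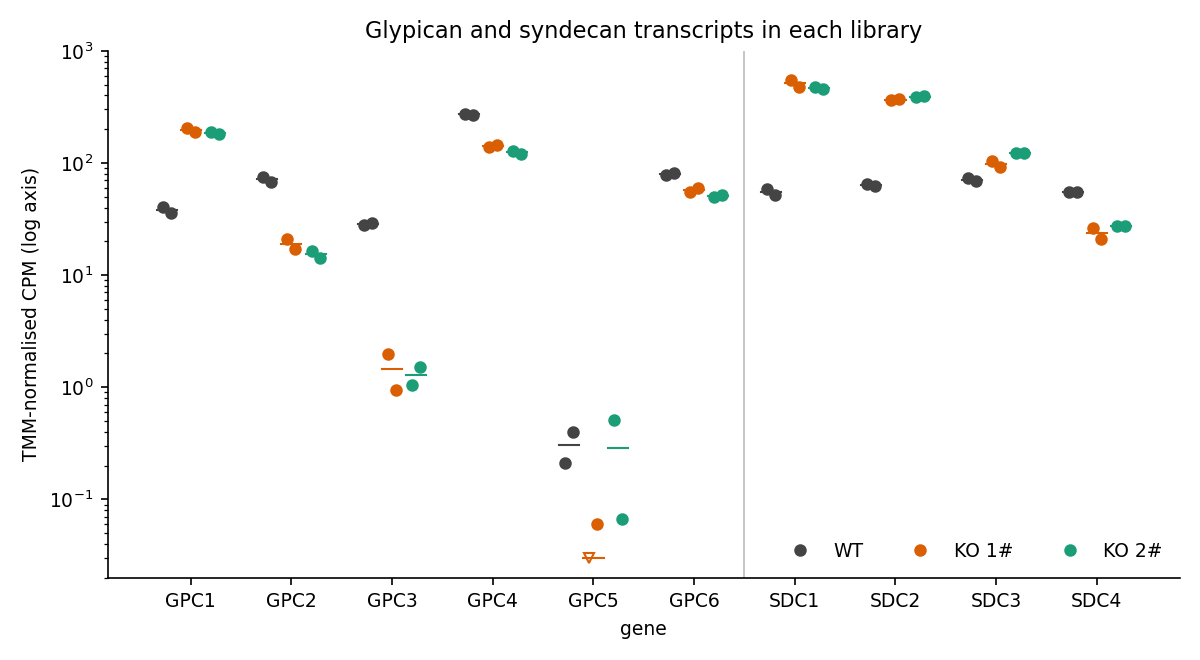
Levels of the 6 glypican and 4 syndecan genes in each of the 6 libraries, in TMM-normalised CPM on a log axis, with 1 point per library, a bar at the group mean and an open triangle for a library with 0 counts. SDC1, SDC2 and GPC1 stand well above WT in all 4 knockout libraries, GPC3 well below, and only GPC5 has overlapping groups.

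SDC1 showed the largest rise. This syndecan is typical of epithelia and plasma cells and binds growth factors and matrix (ENSG00000115884, GRCh38 chromosome 2, 20200797 to 20225433, minus strand). Its level was 58.5 and 51.6 CPM in the WT libraries, 552 and 477 in the KO 1# libraries, and 479 and 452 in those of KO 2#. All 4 knockout libraries were far above both WT libraries, and KO 1# and KO 2# overlapped. The WT mean was 55.0 ± 4.89 (SD, n = 2) and the knockout mean 490 ± 43.4 (SD, n = 4). On the log2 scale SDC1 rose by 3.15 (SE 0.08, adjusted p = 1.23e-16). The rise was 3.23 in KO 1# and 3.08 in KO 2# on the log2 scale.

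SDC4 went the other way. It is broadly expressed and acts with integrins at focal adhesions, where its tail binds protein kinase C alpha (ENSG00000124145, chromosome 20, 45325288 to 45348424, minus strand). Its level was 55.5 and 55.3 CPM in the WT libraries, 26.4 and 21.0 in the KO 1# libraries, and 27.6 and 27.7 in those of KO 2#. The WT libraries were nearly equal and all 4 knockout libraries lay at about the same lower level. The log2 fold change came to -1.12 (SE 0.09; adjusted p = 2.15e-09), with -1.23 in KO 1# and -1.004 in KO 2#. In WT, SDC1 and SDC4 had almost the same CPM, and in the knockouts they stood at 490 ± 43.4 and 25.7 ± 3.18 (SD, n = 4).

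The stretches before the start sites of SDC1 and SDC4 are shown because these genes changed in opposite directions. They are 250 bases long, from RefSeq on GRCh38.p14, 5′ to 3′ on the strand of the gene (SDC1 minus strand, chr2:20225476-20225725; SDC4 minus strand, chr20:45348425-45348674), with GC boxes (GGGCGG, or CCGCCC for the other strand) in capitals.
SDC1: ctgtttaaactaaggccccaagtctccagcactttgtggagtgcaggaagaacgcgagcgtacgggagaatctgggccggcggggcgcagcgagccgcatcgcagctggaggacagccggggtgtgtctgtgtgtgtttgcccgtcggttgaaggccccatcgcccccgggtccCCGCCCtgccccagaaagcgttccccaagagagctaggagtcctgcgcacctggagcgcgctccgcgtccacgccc
SDC4: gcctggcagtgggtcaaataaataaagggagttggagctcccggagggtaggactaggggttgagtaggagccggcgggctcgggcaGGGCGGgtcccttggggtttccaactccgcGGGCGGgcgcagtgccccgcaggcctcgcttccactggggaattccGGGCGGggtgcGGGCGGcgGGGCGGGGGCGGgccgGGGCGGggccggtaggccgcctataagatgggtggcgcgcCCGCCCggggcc
SDC1 holds 1 GC box and SDC4 holds 8, some of which overlap or abut. RefSeq windows of 8 of the 10 members are described here, 1 per member, and GPC3 and SDC2 are left out. Of these 8, 7 hold a GC box (all but GPC6), and 42.6% of all 35116 windows do. The full set was not matched to the members, so shares of the members and of all windows stand side by side only. A TATA box (TATAAA or TTTATA) is in 2 of the 8 windows (GPC5 and GPC6) and 10.7% of all windows, and an E-box (CAGGTG or CACCTG) in 2 of the 8 (SDC1 and SDC3) and 17.5% of all. The letters describe the windows only; binding was not measured.

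Members that rose (GPC1, SDC1, SDC3) and members that fell (GPC2, GPC4, SDC4) both had windows above the median GC content of all windows, and GPC6, which fell, lay below it. The GC content of the 8 windows ran from 37.6% (GPC6) to 84.0% (GPC1), with 66.4% in SDC1 and 73.6% in SDC4, and a median of 58.0% over all windows. The number of CpG pairs ran from 6 (GPC6) to 37 (SDC3), with a median of 11 over all windows.

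SDC2, the syndecan best known from fibroblasts, endothelium and other mesenchymal cells, had the second largest rise (ENSG00000169439, chromosome 8, 96493351 to 96611780, plus strand). Its level was 65.0 and 62.8 CPM in the WT libraries, 365 and 369 in the KO 1# libraries, and 388 and 392 in those of KO 2#. Replicates lay close together and the knockout libraries were 5.92-fold above WT (log2 fold change 2.57, SE 0.06, adjusted p = 4.31e-17). The difference between KO 2# and KO 1# was 0.09 on the log2 scale (adjusted p = 0.529).

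SDC3, the syndecan of neurons and of the musculoskeletal system, changed least among the syndecans (ENSG00000162512, chromosome 1, 30869467 to 30908761, minus strand). Its level was 72.7 and 69.0 CPM in the WT libraries, 105 and 91.5 in the KO 1# libraries, and 123 and 122 in those of KO 2#. The 3 groups did not overlap and KO 2# was highest. On the log2 scale the rise was 0.63 (SE 0.07, adjusted p = 1.96e-07), 0.47 in KO 1# and 0.79 in KO 2#. Its direction depends on the scaling. With library totals in place of TMM SDC3 came out at -0.10 (adjusted p = 0.172) over both sets and at -0.24 in KO 1# (adjusted p = 0.0096). The median of all tested genes moved with the scaling too, from -0.13 to -0.86, and against that median SDC3 was 0.76 higher under TMM.

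Among the glypicans only GPC1 rose. GPC1 is a broadly expressed glypican that binds FGF2 and other growth factors (ENSG00000063660, chromosome 2, 240435671 to 240468078, plus strand). Its level was 40.7 and 35.6 CPM in the WT libraries, 204 and 188 in the KO 1# libraries, and 190 and 181 in those of KO 2#. Every knockout library was above WT and the knockout sets overlapped. The knockout level was 4.99-fold higher (log2 fold change 2.32, SE 0.07, adjusted p = 4.88e-15).

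GPC4 was the most abundant member in WT and fell by about the same amount in both knockout sets. It modulates Wnt and BMP signals in early embryos (ENSG00000076716, chromosome X, 133300103 to 133415490, minus strand). Its level was 275 and 270 CPM in the WT libraries, 137 and 144 in the KO 1# libraries, and 129 and 121 in those of KO 2#. The groups did not overlap, and the fitted log2 fold change was -1.04 with an SE 0.06 (adjusted p = 7.03e-12), with -0.95 in KO 1# and -1.13 in KO 2#.

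GPC3 fell the most of all members. It is a fetal glypican that restrains hedgehog signals and body growth, is lost in Simpson-Golabi-Behmel syndrome, and returns in liver cancer (ENSG00000147257, chromosome X, 133535745 to 133985895, minus strand). Its level was 27.7 and 28.95 CPM in the WT libraries, 1.97 and 0.939 in the KO 1# libraries, and 1.05 and 1.52 in those of KO 2#. The knockout libraries still held 29 to 62 counts each, against 1452 and 1391 in WT. The log2 fold change came to -4.37 (SE 0.18; adjusted p = 1.75e-13). GPC3 and GPC4 lie 120.3 kb apart on the same strand of chromosome X. Both fell, GPC3 20.7-fold and GPC4 2.06-fold.

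GPC2, a glypican of developing neurons that binds midkine, fell as well (ENSG00000213420, chromosome 7, 100169606 to 100177372, minus strand). Its level was 75.1 and 68.1 CPM in the WT libraries, 20.9 and 17.2 in the KO 1# libraries, and 16.4 and 14.1 in those of KO 2#. WT was well above all knockout libraries, and KO 2# lay just below KO 1#. The log2 fold change came to -2.07 (SE 0.09; adjusted p = 4.83e-13). GPC2 stands head to head with STAG3, a cohesin subunit of meiosis, with 191 bases between the genes in GENCODE 29. In RefSeq the start sites given for STAG3 lie 343 and 537 bases from that of GPC2. STAG3 fell too, from 5.42 ± 0.334 (SD, n = 2) to 2.66 ± 0.407 (SD, n = 4) CPM (log2 fold change -1.03, adjusted p = 2.65e-04). GAL3ST4, 0.9 kb away on the other side, rose from 8.04 to 31.0 CPM (log2 fold change 1.94, adjusted p = 1.43e-11).

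The RefSeq windows of GPC1 and GPC4 are shown because these are the leading glypicans of the knockout libraries and changed in opposite directions, and that of GPC2 because it is shared with STAG3. For GPC2 only the stretch between the genes as GENCODE 29 bounds STAG3 is given. All are 5′ to 3′ on the strand of the glypican, GRCh38.p14, GC boxes in capitals (GPC1 plus strand, chr2:240435413-240435662; GPC4 minus strand, chrX:133415490-133415739; GPC2 minus strand, chr7:100177382-100177562).
GPC1: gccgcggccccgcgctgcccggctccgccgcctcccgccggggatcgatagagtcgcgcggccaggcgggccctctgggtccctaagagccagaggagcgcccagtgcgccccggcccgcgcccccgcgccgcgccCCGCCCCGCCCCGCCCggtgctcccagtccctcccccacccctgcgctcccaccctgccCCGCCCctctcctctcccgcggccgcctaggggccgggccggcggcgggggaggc
GPC4: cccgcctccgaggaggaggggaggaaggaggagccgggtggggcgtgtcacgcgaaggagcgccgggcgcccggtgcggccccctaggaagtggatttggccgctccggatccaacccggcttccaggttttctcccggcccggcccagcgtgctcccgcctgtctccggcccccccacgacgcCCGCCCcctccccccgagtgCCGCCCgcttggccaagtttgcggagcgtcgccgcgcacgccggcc
GPC2: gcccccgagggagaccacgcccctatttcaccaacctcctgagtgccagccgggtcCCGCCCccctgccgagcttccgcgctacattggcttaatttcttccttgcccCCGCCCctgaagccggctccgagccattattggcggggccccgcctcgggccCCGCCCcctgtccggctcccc
There are 4 GC boxes before GPC1, 2 before GPC4 and 3 in the 181 bases before GPC2.

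GPC6, a relative of GPC4 with a role in long-bone growth, fell mildly (ENSG00000183098, chromosome 13, 93226842 to 94407401, plus strand). Its level was 77.5 and 80.7 CPM in the WT libraries, 54.8 and 60.2 in the KO 1# libraries, and 50.1 and 52.2 in those of KO 2#. The groups did not overlap (log2 fold change -0.54, SE 0.07, adjusted p = 1.15e-06). An antisense gene, AL354811.1, shares 476 exon bases with GPC6 and held 17 counts over all 6 libraries; without a known strand setting, reads of the overlap cannot be assigned.

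GPC5, which lies 353.2 kb from GPC6 on the same strand, was barely detected (ENSG00000179399, chromosome 13, 91398607 to 92873682, plus strand). It is a close relative of GPC3 and is mainly known from brain and fetal tissue. The WT libraries held 11 and 19 counts, those of KO 1# 0 and 2, and those of KO 2# 14 and 2. KO 2# replicate 1, at 0.507 CPM, lay above both WT libraries (0.210 and 0.395), and the other 3 knockout libraries lay below them. The fitted log2 fold change of both sets together was -1.62 (SE 0.94, adjusted p = 0.125). In KO 1#, with 2 counts against 30 in WT, the ratio was 9.63-fold lower with a 95% exact interval of 2.44 to 83.2, which covers counting error only (edgeR adjusted p = 0.0378). That call was lost when any of 4 libraries was left out: WT replicate 1 (adjusted p = 0.0857), WT replicate 2 (0.239), KO 1# replicate 1 (0.208) or KO 2# replicate 1 (0.0506). It was also lost with no low-count filter (0.0502) and in DESeq2 (0.0930). In KO 2# the log2 fold change was -0.09 (adjusted p = 0.942).

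**Figure D2:**
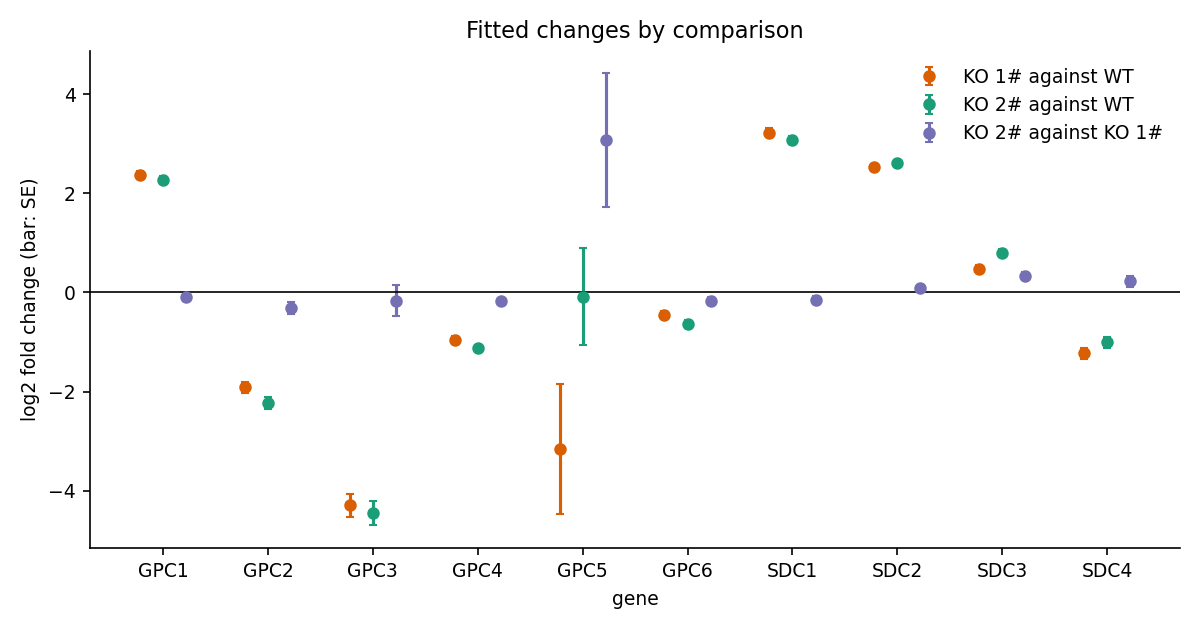
Fitted log2 fold changes of the 10 members with standard errors, for KO 1# against WT and KO 2# against WT, and beside them KO 2# against KO 1#. The knockout sets differ by at most 0.33 for every member except GPC5, whose errors are wide. SDC3, 0.33 higher in KO 2#, is the only member called between the sets.

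The knockout sets were then set against each other. Of all tested genes 3.86% were called between KO 2# and KO 1#, and 1.58% were called higher in KO 2#. Of the 10 members 1 was called, as higher. SDC3 was 0.33 higher in KO 2# on the log2 scale (SE 0.08, adjusted p = 0.0261). The call was lost without KO 1# replicate 2 (0.24, adjusted p = 0.0633), without KO 2# replicate 1 (0.32, adjusted p = 0.173), without KO 2# replicate 2 (0.33, adjusted p = 0.174) and with library totals (0.28, adjusted p = 0.0529). For the other members the difference was not called and ran from -0.32 in GPC2 to 0.22 in SDC4, apart from GPC5 at 3.07 with an SE of 1.35 (adjusted p = 0.267). KO 1# and KO 2# were each compared with the same 2 WT libraries, so their likeness in the comparisons with WT is partly shared.

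To compare members with each other, levels were divided by the length of the union of their exons (CPM per kb). In WT, GPC4 led with 55.0 ± 0.740 CPM per kb (SD, n = 2), followed by SDC4 at 21.2, GPC2 at 18.7, SDC1 at 15.3, SDC2 at 14.1, GPC6 at 12.2, GPC3 at 10.5, SDC3 at 10.02, GPC1 at 5.85 and GPC5 at 0.0854. Only GPC3 and SDC3 overlapped among neighbours in this order. In the knockouts, SDC1 led with 136 ± 12.1 CPM per kb (SD, n = 4), followed by SDC2 at 83.4, GPC1 at 29.3, GPC4 at 26.8, SDC3 at 15.6, SDC4 at 9.82, GPC6 at 8.396, GPC2 at 4.48, GPC3 at 0.505 and GPC5 at 0.0448. The libraries of GPC1 and GPC4 overlapped, as did those of SDC4 and GPC6. With the length of the longest transcript instead, GPC1 stood at 51.3 in the knockouts and no longer overlapped GPC4 at 26.8.

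The balance between the families turned over. Summed over members, glypicans stood at 102 ± 1.87 CPM per kb in WT (SD, n = 2) and 69.5 ± 4.21 in the knockouts (SD, n = 4), and syndecans at 60.6 ± 2.10 and 245 ± 10.4. With library totals in place of TMM, the knockout sums were 0.409 times the WT sum for glypicans and 2.43 times for syndecans. The ratio of syndecans to glypicans within a library does not depend on scaling between libraries. It was 0.599 and 0.586 in the WT libraries, 3.52 and 3.26 in the KO 1# libraries, and 3.65 and 3.72 in those of KO 2#. Glypicans were thus in the majority in both WT libraries and syndecans in all 4 knockout libraries. With 2 against 4 libraries the smallest two-sided p of an exact permutation test is 0.133, so the ratio and the shares below are given without a test. The sum of both families was 163 ± 3.97 in WT and 315 ± 12.8 in the knockouts with TMM scaling, a ratio of 1.93, and the ratio was 1.16 with library totals.

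Within the glypicans, GPC4 held 53.7% ± 0.259 (SD, n = 2) of the summed per-length level in WT and 38.5% ± 1.23 (SD, n = 4) in the knockouts. GPC1 went from 5.72% ± 0.428 to 42.1% ± 1.42, between 40.0 and 43.1% in each knockout library. GPC2 went from 18.3% ± 0.920 to 6.43% ± 0.716 and GPC3 from 10.2% ± 0.497 to 0.727% ± 0.240. The share of GPC6 was 11.96% ± 0.554 and 12.1% ± 0.733, a change of 0.13 points within the spread, but with the longest transcript as length the change was -1.52 points. GPC5 held at most 0.211% in any library. The glypicans of WT were thus mainly GPC4 with GPC2, GPC6 and GPC3, and those of the knockouts GPC1 and GPC4.

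Within the syndecans, SDC4 was the leading member in WT, with 34.2 and 35.8% of the summed per-length level. It held 3.41 to 4.41% in the knockout libraries. SDC1 went from 25.2% ± 1.37 (SD, n = 2) to 55.5% ± 3.03 (SD, n = 4) and SDC2 from 23.2% ± 0.255 to 34.1% ± 2.11. SDC3 went from 16.5% ± 0.0338 to 6.38% ± 0.892, so its share fell while its normalised level was higher. SDC1 and SDC2 together made up most of the syndecan transcripts of every knockout library.

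**Figure D3:**
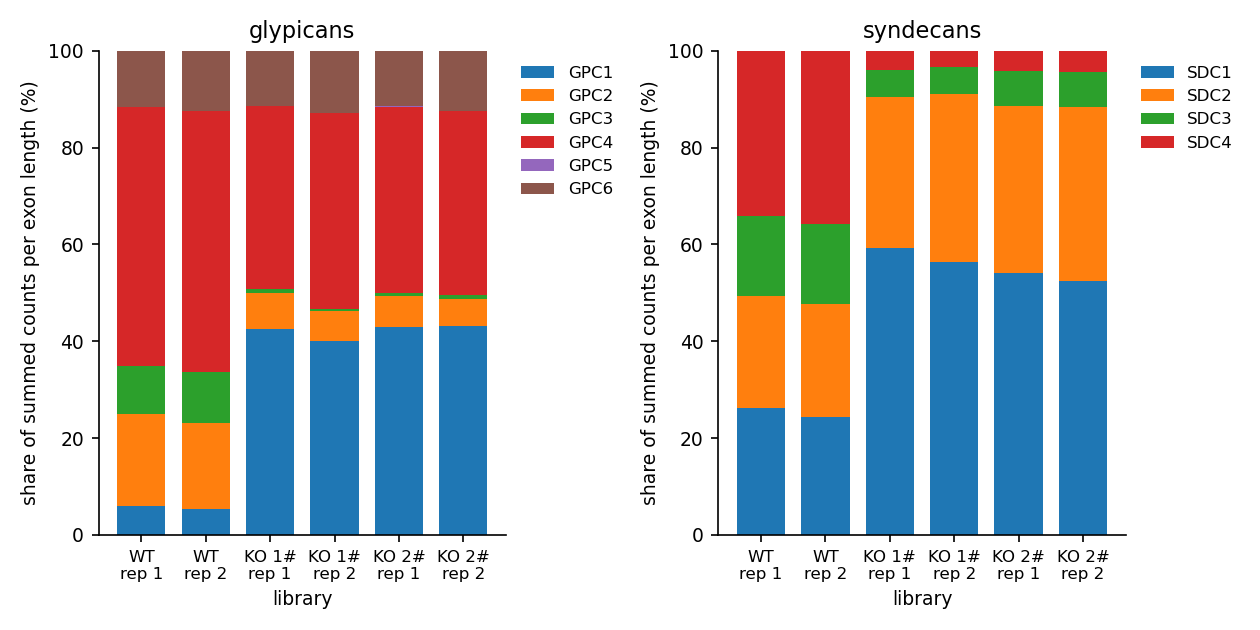
Share of each member in the summed per-length level of its family, in percent, as stacked bars for each of the 6 libraries. GPC1 takes 40.0 to 43.1% of the glypicans in the knockout libraries against 5.42 and 6.02% in WT, and SDC4 shrinks from 34.2 and 35.8% of the syndecans to at most 4.41%.

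The genes that build the chains were then counted, since a core protein without chains does not act as a heparan sulfate proteoglycan. Of 7 enzymes that start the chain on the core protein (the linker shared with chondroitin sulfate), 6 were called higher and 1 lower, with a median log2 fold change of 1.51. XYLT1, which adds the first xylose, rose from 48.1 ± 1.69 (SD, n = 2) to 222 ± 32.7 (SD, n = 4) CPM. B3GALT6 and B4GALT7, which add the galactoses, rose by 2.05 and 1.85 on the log2 scale. PXYLP1, the phosphatase that removes the xylose phosphate, fell from 16.8 to 9.96 CPM. Of 5 polymerase genes 4 were higher and 1 lower (median 1.97). EXT1 and EXT2, which form the polymerase, rose from 28.6 to 228 and from 44.5 to 174 CPM, EXTL1 rose from 1.68 to 92.9, and EXTL3, which starts the chain, fell slightly from 164 to 141 CPM (log2 fold change -0.21). For these and the groups of genes that follow, the shares to read against are those of all tested genes, 35.8% called higher and 41.4% called lower, with a median of -0.13.

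Of 14 tested enzymes that modify the chain 6 were higher, 7 lower and 1 neither (median -0.19), a split near that of all tested genes. NDST1, the main N-deacetylase and N-sulfotransferase, rose from 104 to 389 CPM, and the 3-O-sulfotransferases HS3ST3A1 and HS3ST3B1 rose from 4.79 to 39.8 and from 5.501 to 38.2 CPM. HS6ST1 and HS6ST2, which sulfate the 6-O position, fell from 72.5 to 35.9 and from 13.1 to 4.62 CPM, and the 3-O-sulfotransferase HS3ST5 fell from 6.81 to 0.271. HS3ST5 was lower in KO 2#, with 1 and 0 counts, than in KO 1# (log2 fold change -4.67, edgeR adjusted p = 0.0061). The 3-O-sulfotransferases HS3ST1, HS3ST2 and HS3ST4 were called lower too. They lie below the level set for naming and are named so that all tested 3-O-sulfotransferases are given. The endosulfatases, which take 6-O-sulfate off finished chains at the cell surface, both rose: SULF2 from 13.1 to 310 CPM, and SULF1 from 56.8 ± 1.57 (SD, n = 2) to 284 ± 127 (SD, n = 4). SULF1 was lower in KO 2# than in KO 1# (log2 fold change -1.18, adjusted p = 4.20e-09). The other 2 genes of that group, the heparanase genes HPSE and HPSE2, were lower; they lie below the level set for naming and are named because the count is small.

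Among 10 genes of core protein release and shedding, counting the inhibitor TIMP3, 7 were higher, 2 lower and 1 neither (median 0.69). With library totals 4 were higher. MMP9, counted as higher, rose in KO 1# (log2 fold change 1.27) but was not called in KO 2# (-0.11, edgeR adjusted p = 0.433). MMP14, a membrane protease that cleaves SDC1, rose from 120 to 4137 CPM, and TIMP3, an inhibitor of such proteases, from 6.92 to 1110. TIMP3 was lower in KO 2# (830 CPM) than in KO 1# (1389 CPM; log2 fold change -0.74, edgeR adjusted p = 1.78e-06). MMP7, which sheds SDC1 in epithelia, was at 0 in WT and at least 72.1-fold higher in the knockouts, computed against 3 counts per WT library. GDPD2, of the GDPD family, relatives of which cut the anchor of glypicans, fell from 6.03 to 0.328 CPM. Of 9 partners of the syndecan tail 5 were higher, 3 lower and 1 neither (median 0.40), and with library totals 3 were higher and 5 lower, so the group has no settled direction. PRKCA, the protein kinase C alpha that binds SDC4, rose from 15.2 to 96.2 CPM while SDC4 fell. The PDZ adaptors GIPC1 and SDCBP (syntenin) rose from 60.6 to 159 and from 70.4 to 135 CPM. TIAM1 fell from 30.1 to 13.6 CPM and EZR (ezrin) from 220 to 187.

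**Figure D4:**
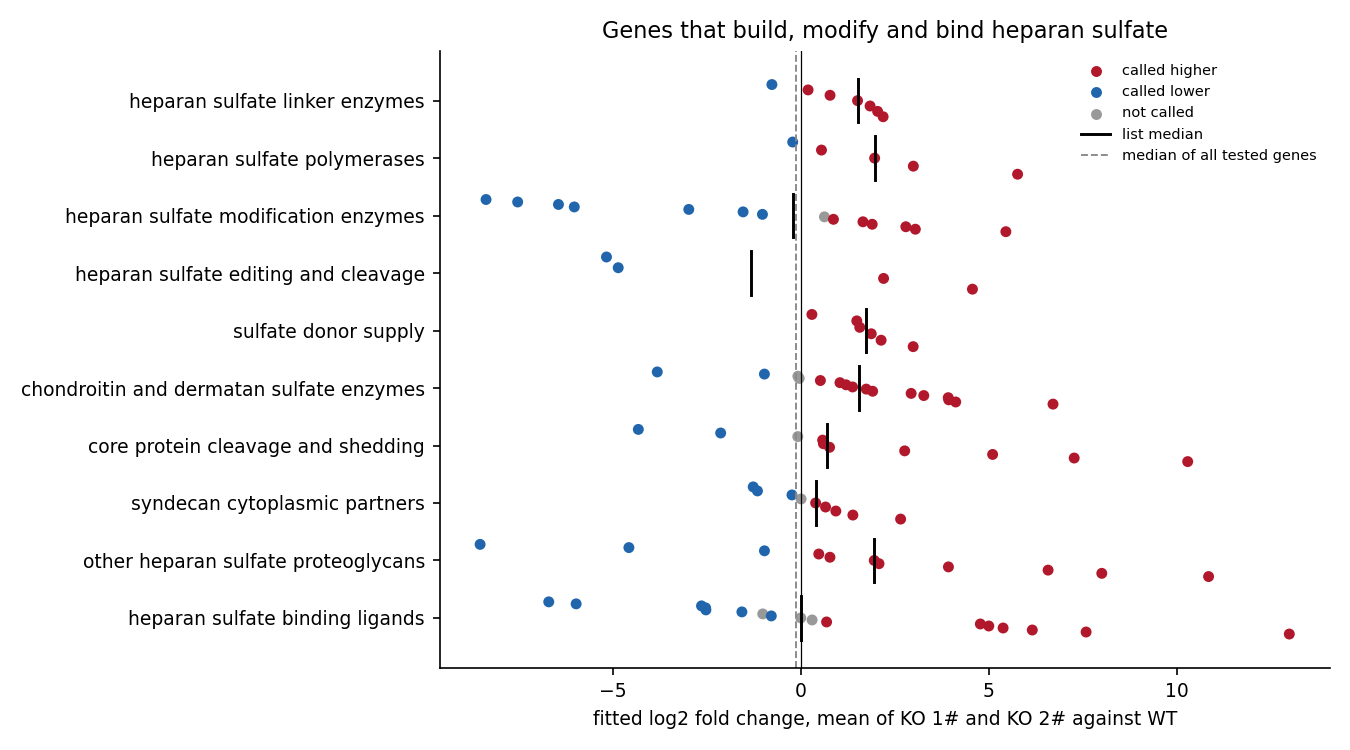
Fitted log2 fold changes (both knockout sets against WT) of the tested genes that build, modify and bind heparan sulfate, 1 point per gene, with the median of each group and of all tested genes. Points of genes at 0 in a group depend on the prior count of the fit and are no bounds. Linker, polymerase and sulfate donor genes lie mostly to the right of the overall median of -0.13, and modification enzymes and ligands on both sides.

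**Figure D5:**
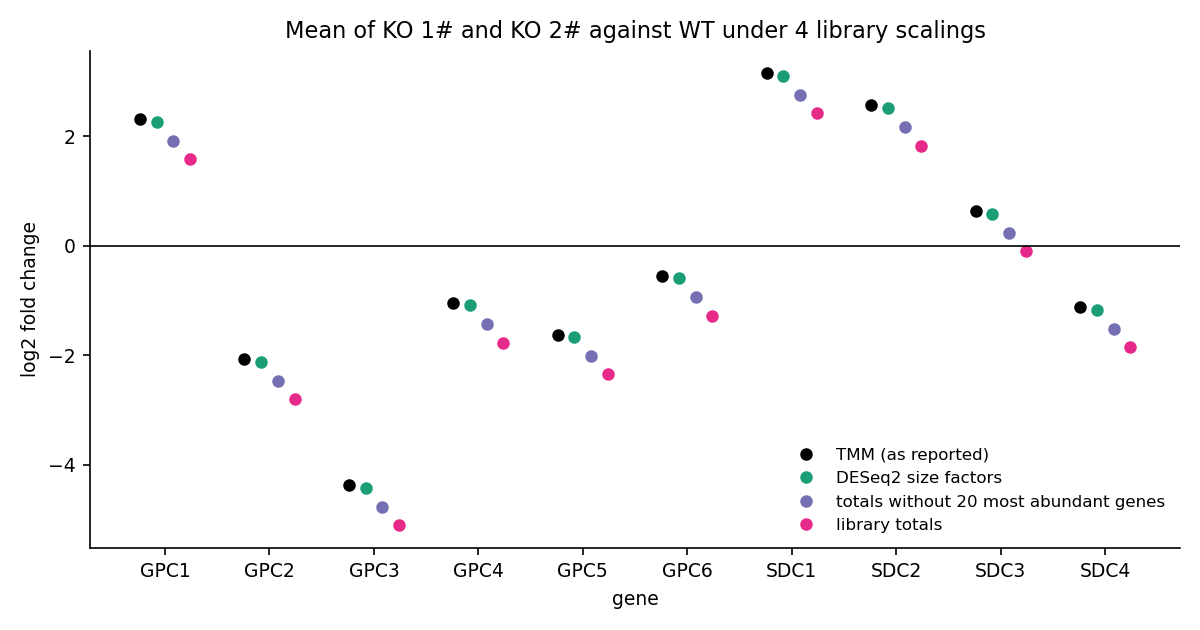
Log2 fold change of each member, both knockout sets against WT, under TMM and under the other scalings of the libraries. Library totals shift all members down together; SDC3 is the only member that changes sign, from 0.63 to -0.10.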

How the data were processed

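A TruSeq kit was used for the 6 libraries, which were made from RNA of cells labelled H1, per the labels' protocols. The authors deposited raw, whole-number read counts for each gene, 1 column per library. Per the submitters' processing notes, HISAT2 2.0.4, SAMtools 1.3.1, HTSeq 0.6.0, DESeq 1.18.1 and the build GRCh38 were used; what each did, the annotation release and whether strand was used in counting are not stated there. Reads without molecular identifiers are not independent molecules, so intervals cover counting error only.

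Counts were fitted with edgeR 4.0.16 in R 4.3.3 (TMM, filterByExpr with a minimum count of 10, quasi-likelihood, robust, 3 groups, 3 residual degrees of freedom). Tests were two-sided, with Benjamini-Hochberg adjustment over 19660 genes. SEs were derived from the F statistic. The fit was tested on simulated data in which few genes changed, with rises and falls balanced. That test cannot check the scaling in these libraries, where 77.3% of tested genes were called. DESeq2 1.42.0, other scalings and filters, a replicate block, left-out replicates and another exon length were tried.

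Positions and exon lengths came from GENCODE 29, in which 58275 of 58395 identifiers were found; the rest held at most 0.00675% of a library's counts. Promoter windows came from RefSeq.

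The members and the lists (157 symbols, 143 tested) were chosen with earlier results of these data known. Beside the members, BRPF1 and the nearest protein-coding neighbours, each list gave its 3 largest rises and 3 largest falls among called genes with an average log2 CPM of at least 1 and the same sign in both knockout sets. Replicates differed beyond counting noise (chi-square per degree of freedom 4.20 to 11.0), so none was a copy of another. Some neighbouring genes are not reported here.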

Additional observations from a re-analysis of the deposited data

Results flagged for a closer look

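SDC3 differed between the knockout sets: its level was 0.33 higher in KO 2# than in KO 1# on the log2 scale (edgeR adjusted p = 0.0261), with 123 and 122 CPM in KO 2# against 105 and 91.5 in KO 1#. It was picked out because the difference between the sets was itself tested. Left-out replicates and library totals ended the call, with adjusted p of 0.0633 without KO 1# replicate 2, 0.173 and 0.174 without either KO 2# replicate, and 0.0529 with library totals. It was the only member so called, and 3.86% of all tested genes were.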

How the results depend on the processing

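Of the 10 members, 8 (all but GPC5 and SDC3) kept their direction and their call against WT, in both sets together, under every alternative run. Their log2 fold changes ranged from 1.59 to 2.42 for GPC1, -2.80 to -2.00 for GPC2, -5.10 to -4.14 for GPC3, -1.77 to -1.01 for GPC4, -1.28 to -0.50 for GPC6, 2.42 to 3.24 for SDC1, 1.83 to 2.59 for SDC2 and -1.85 to -1.03 for SDC4. Library totals moved the median of all genes by -0.73, and totals without the 20 most abundant genes by -0.39. Of all calls 46.4% were higher under TMM, 26.7% under library totals and 34.9% without those 20 genes. Without the low-count filter 38795 genes were tested. Under library totals SDC3 turned to -0.10 (adjusted p = 0.172), and to -0.24 in KO 1# (adjusted p = 0.0096), and GPC5 was called at -2.33 (adjusted p = 0.0265). Under library totals there were 2 lower linker genes, 2 lower polymerase genes, 1 lower sulfate donor gene, 5 lower chondroitin sulfate genes, 4 higher shedding genes, and 3 higher and 5 lower syndecan partners; without the 20 most abundant genes there were 2 lower linker and 4 lower chondroitin sulfate genes. Between KO 2# and KO 1#, library totals left 0 members higher. Leaving out a replicate gave 0 to 2 members higher and 0 to 2 lower there: without KO 1# replicate 2, GPC2 (-0.45, adjusted p = 0.0143) and SDC1 (-0.24, adjusted p = 0.0160) were lower, and without KO 1# replicate 1, SDC4 was also higher (0.40, adjusted p = 0.0375). It moved GPC3 there between -0.60 and 0.46, and GPC5 in KO 2# against WT between -2.11 and 0.75. With the longest transcript as length, the share of GPC1 rose by 45.9 percentage points in place of 36.4, that of GPC4 changed by -18.5 in place of -15.2, that of GPC6 by -1.52 in place of 0.13, and the ratio of syndecans to glypicans was 0.564 in WT and 2.95 in the knockouts. Leaving out a replicate kept that ratio between 0.586 and 0.599 in WT and between 3.47 and 3.63 in the knockouts; the ratio and its alternatives were chosen after seeing the data. Leaving out a replicate put the change in share of GPC5 between -0.0661 and 0.00892 points and that of GPC6 between -0.262 and 0.521. The cause of these changes was not tested. Deviations of libraries with the same replicate number correlated at 0.0110 to 0.0336, so the labels' numbers were not taken as pairs. With the replicate number as a block, 3 members were lower in KO 2# than in KO 1# (GPC2, GPC4 and SDC1, adjusted p = 0.0345, 0.0324 and 0.0331), all calls in that comparison went from 759 to 1633, and the GPC5 call in KO 1# was lost (adjusted p = 0.0557). Values of GPC5 are limited by depth.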

Other observations

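Transcripts for sulfate donor supply and for chondroitin sulfate, a chain that some syndecans also carry, were counted in the same way, beside 35.8% of all tested genes called higher and 41.4% called lower. All 6 genes of sulfate donor supply were higher (median log2 fold change 1.72, against -0.13 for all tested genes). PAPSS2, which makes the sulfate donor, went from 27.6 to 221 CPM, and the donor's Golgi transporters SLC35B3 and SLC35B2 from 7.18 to 31.6 and from 32.0 to 118. Of 16 chondroitin and dermatan sulfate enzymes 12 were higher, 2 lower and 2 neither (median 1.56), and 5 were lower with library totals. CHSY3 rose from 1.77 to 187 CPM, CHPF2 from 21.5 to 375 and CSGALNACT2 from 7.34 to 113, while the sulfotransferases CHST13 and UST fell from 6.11 to 0.614 and from 54.1 to 27.8. Of 11 other proteoglycans that can carry heparan sulfate 8 were higher and 3 lower (median 1.96): COL15A1, a basement membrane collagen, rose from 0.171 to 336 CPM, CD44, the hyaluronan receptor, from 3.08 to 296, and NRP1 from 0.341 to 90.5, while SPOCK2 fell from 5.54 to 0.231 and TGFBR3 from 4.31 to 2.23. COL15A1 was lower in KO 2# (228 CPM) than in KO 1# (444 CPM, edgeR adjusted p = 8.73e-08).

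Of 17 tested ligands of heparan sulfate 7 were higher, 7 lower and 3 neither, a split near that of all tested genes. FGF2, a ligand that GPC1 binds, fell from 87.8 to 15.3 CPM while GPC1 rose. FGF1 rose from 0.324 to 62.2 CPM, WNT5A from 3.39 to 244, and FGF7 was at 0 in WT and at least 460-fold higher in the knockouts, computed against 3 counts per WT library. PDGFB fell from 49.8 to 0.475 CPM and SLIT2 from 38.6 to 6.80.

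Among the nearest protein-coding neighbours, LAPTM4A beside SDC1 and LAPTM5 beside SDC3 rose (log2 fold change 1.14 and 3.56), as did both syndecans. CPQ, 33.4 kb beyond SDC2, rose from 0.706 to 45.5 CPM. Beside SDC4, RBPJL was 113-fold lower (exact 95% interval 38.2 to 550, counting error only) and SYS1 rose by 0.83 on the log2 scale. Beside GPC3, CCDC160 fell by 3.997 on the log2 scale, SLITRK5, the neighbour of GPC5, fell by 2.59, and ANKMY1, the neighbour of GPC1, rose by 0.56 under TMM, a rise smaller than the shift that library totals bring. OTOS, TFDP3 and DCT held too few counts to be tested.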
